A study of Homo sapiens with 2 samples.

Results

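The genes described here are the 10 that carry out or steer the end joining of broken DNA, comprising PRKDC, XRCC5, XRCC6, LIG4, XRCC4, NHEJ1, PAXX, DCLRE1C, TP53BP1 and POLQ. They were chosen by name, through the gene symbol that the platform annotation gives each probe, and not by their measured values. All 10 had a named probe, 18 probes in all, of 20046 named genes and 47323 probes on the array. The cells are A4573, a cell line established from Ewing sarcoma, a tumour of bone and soft tissue. One culture was the wild-type line, for which the labels give no irradiation, and the other was a radiation-adapted derivative of the same line labelled 4 Gy, whose irradiation schedule and harvest time the labels do not give. Total RNA of each was hybridised to 1 Illumina bead array, so every comparison below is between 1 array and 1 array, has no replicate check and carries no test.

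A double-strand break is the lesion through which ionising radiation mainly kills cells, and most such breaks in human cells are rejoined by classical non-homologous end joining. In that pathway the Ku70 and Ku80 proteins (genes XRCC6 and XRCC5) ring the broken end and recruit the catalytic kinase subunit DNA-PKcs (gene PRKDC), which activates the nuclease Artemis (gene DCLRE1C), and DNA ligase IV (gene LIG4) then seals the break together with XRCC4 and its structural relatives XLF (gene NHEJ1) and PAXX. TP53BP1 encodes 53BP1, which binds chromatin at the break and protects the end from resection, and POLQ encodes DNA polymerase theta, which anneals short matching stretches on resected ends and so joins them by a separate, error-prone route that is active in S phase and mitosis.

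POLQ had the highest difference among the members detected, and the remaining members went both ways by about 1.5-fold or less. Differences are given as the log2 value of the adapted array minus that of the wild-type array, after background correction and quantile normalisation. POLQ was 3.08-fold higher in the adapted array (difference 1.62), and its difference exceeded that of XRCC6 by 1.02, and by 0.21 to 1.43 over all settings. PRKDC (0.61) and XRCC6 (0.61) were 1.53-fold and 1.52-fold higher, and TP53BP1 was higher by 0.47. PAXX (-0.56) and DCLRE1C (-0.55) were lower, and XRCC5 read -0.23, or 0.04 with median scaling. LIG4, XRCC4 and NHEJ1 lay at the detection limit or below it, so their direction could not be read.

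Of the 10 genes, 7 were detected in both arrays, at a detection p of at most 0.01 against the negative controls of the array. LIG4 was detected by a different probe in each array, and XRCC4 and NHEJ1 were detected in neither. Among the 8 genes detected in some way, 3 were at least 1.5-fold higher and 0 were at least 1.5-fold lower. Over all 11296 genes detected in at least 1 array, 11.8% were at least 1.5-fold higher and 12.3% at least 1.5-fold lower. The count of 3 rests on a boundary, since PRKDC and XRCC6 lay just inside 1.5-fold while PAXX (1.48-fold lower) and DCLRE1C (1.46-fold lower) lay just outside it. Without background correction POLQ alone was at least 1.5-fold higher and 0 members were lower, where 4.21% of all genes were higher and 5.8% lower. With median scaling TP53BP1 also passed 1.5-fold, making 4. The median of the 8 differences was 0.12, against 0.01 over all genes detected, but its sign was not settled. It was -0.23 at a detection p of at most 0.05, -0.21 without a detection filter and 0.49 in the authors' processed values. These shifts came with the dim members. The 8 include LIG4, whose direction could not be read, XRCC4 enters at the looser detection p, and NHEJ1 enters without a filter. Among the 7 genes detected in both arrays, the middle value was that of TP53BP1 (0.47).

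**Figure D1:**
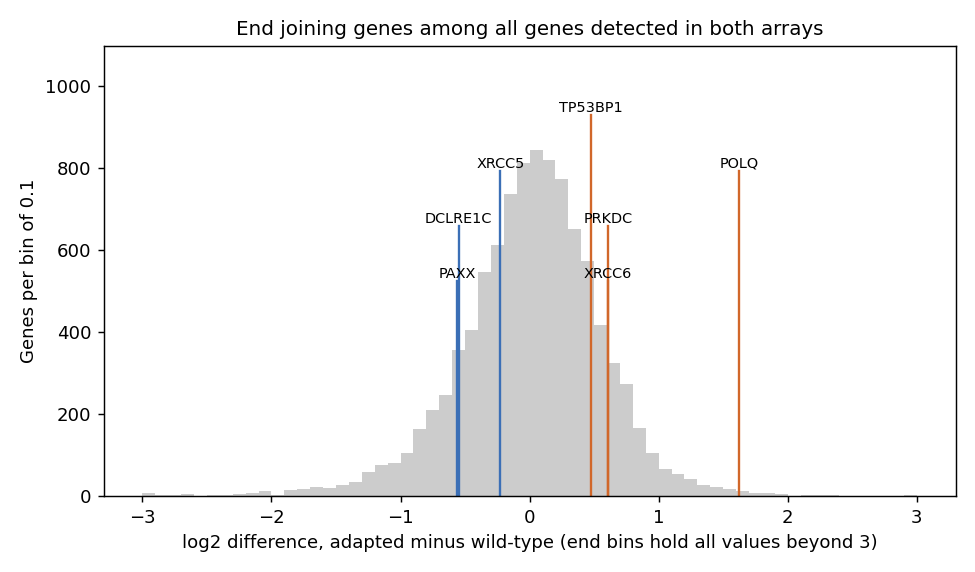
The grey bars count the 9840 genes detected in both arrays by their log2 difference (adapted minus wild-type) in bins of 0.1, and each coloured line marks 1 of the 7 end joining genes detected in both arrays (orange above 0, blue below 0; the height of a line has no meaning). POLQ at 1.62 lies in the upper tail, and the other 6 lie on the shoulders of the distribution between -0.56 and 0.61.

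The promoters of POLQ, XRCC6 and PAXX are shown because, among the members, these genes had the highest difference, a higher value in each of several probes, and a difference below 0 in a bright probe. Each is the stretch of 250 bases just before the start of the gene, 5′ to 3′ on the strand of the gene, from RefSeq on GRCh38.p14. Capitals mark the matches found for the motifs described below, on either strand.
POLQ (chr3:121545989-121546238, minus strand): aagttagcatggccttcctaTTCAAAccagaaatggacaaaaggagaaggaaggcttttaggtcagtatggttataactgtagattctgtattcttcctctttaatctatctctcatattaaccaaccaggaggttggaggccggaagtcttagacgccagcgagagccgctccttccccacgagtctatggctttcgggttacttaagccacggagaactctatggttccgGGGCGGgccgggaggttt
XRCC6 (chr22:41621045-41621294, plus strand): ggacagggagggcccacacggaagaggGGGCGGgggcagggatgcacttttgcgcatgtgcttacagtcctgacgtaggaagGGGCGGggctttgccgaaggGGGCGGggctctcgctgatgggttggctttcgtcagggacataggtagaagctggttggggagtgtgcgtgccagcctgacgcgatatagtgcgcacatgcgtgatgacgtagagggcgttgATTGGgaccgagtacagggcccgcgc
PAXX (chr9:136992172-136992421, plus strand): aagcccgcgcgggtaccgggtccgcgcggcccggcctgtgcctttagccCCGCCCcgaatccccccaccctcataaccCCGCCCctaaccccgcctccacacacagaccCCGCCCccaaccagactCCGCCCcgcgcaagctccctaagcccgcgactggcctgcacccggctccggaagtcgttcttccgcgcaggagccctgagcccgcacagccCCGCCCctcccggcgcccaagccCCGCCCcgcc

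The motifs searched in these windows, on both strands, were CCAAT (bound by NF-Y), GGGCGG (bound by Sp1 and its relatives), CACGTG (the E-box bound by MYC and others), TTTGAA (the core of the cell cycle homology region) and the E2F-type sequences TTTCGCGC and TTTGGCGC. The POLQ window held 1 match to TTTGAA, read there as its reverse complement with its first base 230 bases before the start, and 1 match to GGGCGG, 18 bases before the start. TTTGAA occurs in 13.3% and GGGCGG in 42.6% of the 35116 promoter windows of the same length. The XRCC6 window held 3 matches to GGGCGG and 1 to CCAAT, the latter 26 bases before the start, and CCAAT occurs in 32.0% of all windows. The PAXX window held 6 matches to GGGCGG and none to the other motifs, and 75.6% of its bases were G or C, against 48.4% for POLQ, 63.6% for XRCC6 and a median of 58.0% over all windows.

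The table of promoters gave 14 windows for 8 of the 10 genes, since LIG4 has 5 start sites in it, some with overlapping windows, and DCLRE1C and NHEJ1 have several too. XRCC5 was not in the table, and no window was searched for PRKDC. GGGCGG occurred in 11 of the 14 windows and CCAAT in 6. TTTGAA occurred in the POLQ window alone. CACGTG (6.34% of all windows) and both E2F-type sequences (0.44% and 0.55%) occurred in 0 of the 14. A match is a run of letters and not a shown binding site, and the absence of a match says only that these letters are not in the window.

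For POLQ, the single probe read an intensity of 174 in the wild-type and 316 in the adapted array, in arbitrary fluorescence units before normalisation. The adapted array was thus the brighter by a factor of 1.81 even before any correction. Both readings counted as detected, with a detection p of 0.0026 in the wild-type and 0 in the adapted array. The wild-type reading stood close to the limit, as the dimmest detected probe of that array read 152. On the normalised log2 scale POLQ read 5.96 in the wild-type and 7.58 in the adapted array, and its difference stood 46th from the top of the 9840 genes detected in both arrays.

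The size of the POLQ difference varied with the background correction, and the wild-type reading lay near the background. It was 0.80 (1.74-fold) without background correction, 1.23 with an offset of 50 in place of 16, and 2.01 (4.02-fold) in the authors' processed values. POLQ stood at percentile 98.5 of all genes or higher in each of the 7 alternative settings tried. Precision can be judged only within the arrays: where a gene had several probes, the scatter between its 2 brightest gave an SD of 0.28 per probe over 2326 genes, and 0.33 in the 775 of them with the dimmest second probe. This scatter leaves out the variation between cultures.

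**Figure D2:**
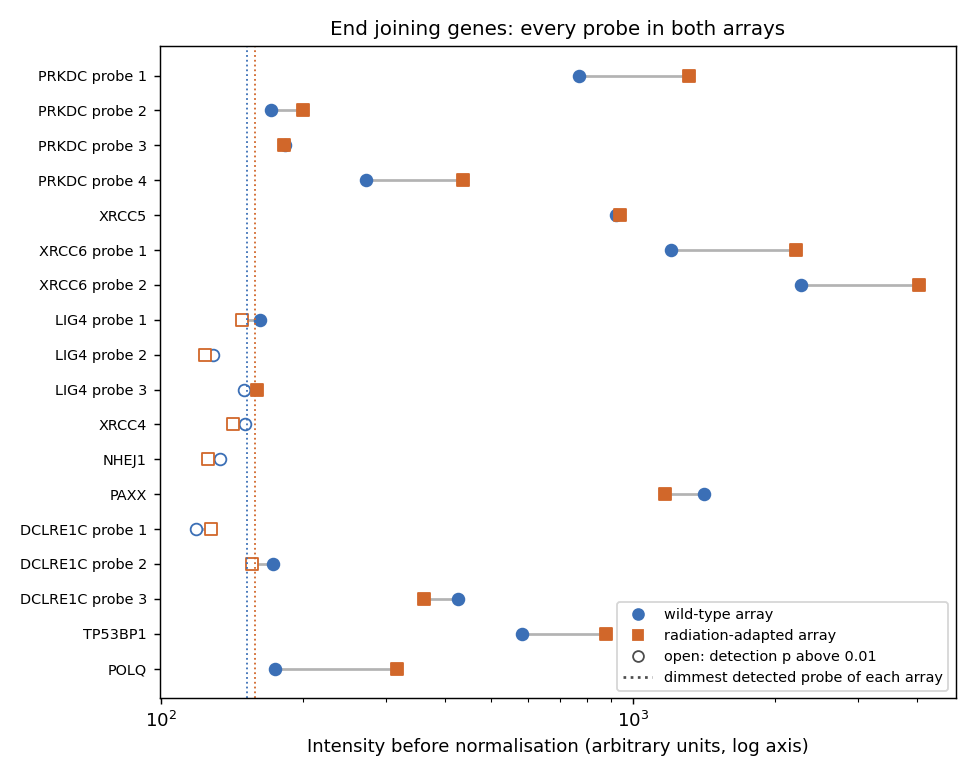
Intensity before normalisation (arbitrary units, log axis) of all 18 probes of the 10 end joining genes, with a blue circle for the wild-type array and an orange square for the adapted array, filled where the detection p was at most 0.01. The XRCC6 probes and the POLQ probe are brighter in the adapted array, the PAXX probe is dimmer, and the probes of XRCC4 and NHEJ1 are open in both arrays.

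The DNA-PK subunits did not all move together. XRCC6, which encodes Ku70, had probes that read 1204 and 2273 in the wild-type and 2218 and 4052 in the adapted array. Both were brighter in the adapted array, by factors of 1.84 and 1.78 before normalisation and by 0.69 and 0.61 on the normalised log2 scale. XRCC5, which encodes its partner Ku80, had 1 probe that read 923 and 939. After normalisation it was lower by 0.23, a size within the SD between probes of a gene, and with median scaling it read 0.04, so its direction is not settled. The difference of XRCC6 exceeded that of XRCC5 by 0.83, and by 0.78 to 0.87 over all settings. That narrow range was in part fixed in advance. Scaling of whole arrays shifts both genes alike, and the detection settings could not act, since all these probes were detected in both arrays. This pair and the other pairs of members compared below were chosen after their values were seen. RefSeq names 5 pseudogenes of XRCC6, and whether its probes also bind their transcripts was not analysed here.

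PRKDC, the catalytic subunit, had 4 probes that were all detected in both arrays. The brightest read 771 in the wild-type and 1315 in the adapted array, and the next brightest 271 and 437. The dimmer probes read 171 against 200 and 183 against 182. Of the 4, all but 1 were thus higher in the adapted array, with normalised differences of 0.61, 0.86 and 0.55, and the fourth was level at -0.06. The level probe and the probe at 0.86 are annotated to the same transcript record, so the record does not separate the probe that stayed level from the others. The mean over the 4 probes was 0.49, which is under 1.5-fold. The difference of PRKDC exceeded that of XRCC5 by 0.84 and lay within 0.01 of that of XRCC6.

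The related giant kinases of the same family were set beside PRKDC. Of 5 listed, 4 were detected, and the median difference was 0.26, or 0.51 with median scaling, which raised the median of all genes to 0.17. Over all detected genes, 11.8% passed 1.5-fold upwards and 12.3% downwards. One passed 1.5-fold, SMG1, a kinase of nonsense-mediated decay, which was higher (0.73, or 0.58 without background correction), and 0 passed it downwards. TRRAP, a scaffold without kinase activity, read 0.48, MTOR, the growth kinase, 0.04, and ATM, the kinase that senses double-strand breaks, -0.33 with probes of differing sign.

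The ligation complex was mostly too dim to measure. LIG4 had 3 probes. One read 162 in the wild-type and 148 in the adapted array, another 150 and 160, and the third 129 and 124. The first passed the detection limit only in the wild-type array and the second only in the adapted array, so the probes pointed in opposite directions (-0.48 and 0.29). In the authors' processed values the gene was represented by the second probe and read 0.49. XRCC4, the scaffold that holds the ligase, read 150 and 142 with a detection p of 0.0143 and 0.108, and NHEJ1 read 133 and 126 with a detection p of 0.266 and 0.601. No fold is given for these, and a level below detection on this array does not show that a gene was silent.

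PAXX, a small protein that steadies Ku on the DNA end, was the one bright member of this group. Its probe read 1415 in the wild-type and 1172 in the adapted array, a ratio of 0.829 before normalisation and a normalised difference of -0.56. That lay at percentile 12.7 of the genes detected in both arrays. The value was -0.51 without background correction and -0.57 in the authors' processed values, and -0.29 with median scaling, a setting that raised the median of all genes to 0.17.

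DCLRE1C encodes Artemis, the nuclease that opens hairpins and trims ends. Its brightest probe read 426 in the wild-type and 360 in the adapted array, with a normalised difference of -0.55. A second probe read 172 and 156 and passed the detection limit only in the wild-type array, with a difference of -0.49. The third read 118 and 128 and was detected in neither. The detected probes were therefore both dimmer in the adapted array, by less than 1.5-fold, and the gene lay at -0.39 without background correction. SUV39H2 and MEIG1 overlap DCLRE1C in RefSeq, which also names 1 pseudogene of it. The probe positions, and any binding of the probes to pseudogene transcripts, were not analysed here.

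TP53BP1 had 1 probe, which read 583 in the wild-type and 878 in the adapted array. The adapted reading was higher by a factor of 1.51 before normalisation and by 0.47 (1.39-fold) after it. The value ranged from 0.40 without background correction to 0.71 with median scaling. The difference of TP53BP1 exceeded that of PAXX by 1.04, and by 0.91 to 1.06 over all settings. Each gene has 1 probe, detected in both arrays, so the detection settings and the mean over probes could not change this value. Scaling of whole arrays shifts both genes alike.

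**Figure D3:**
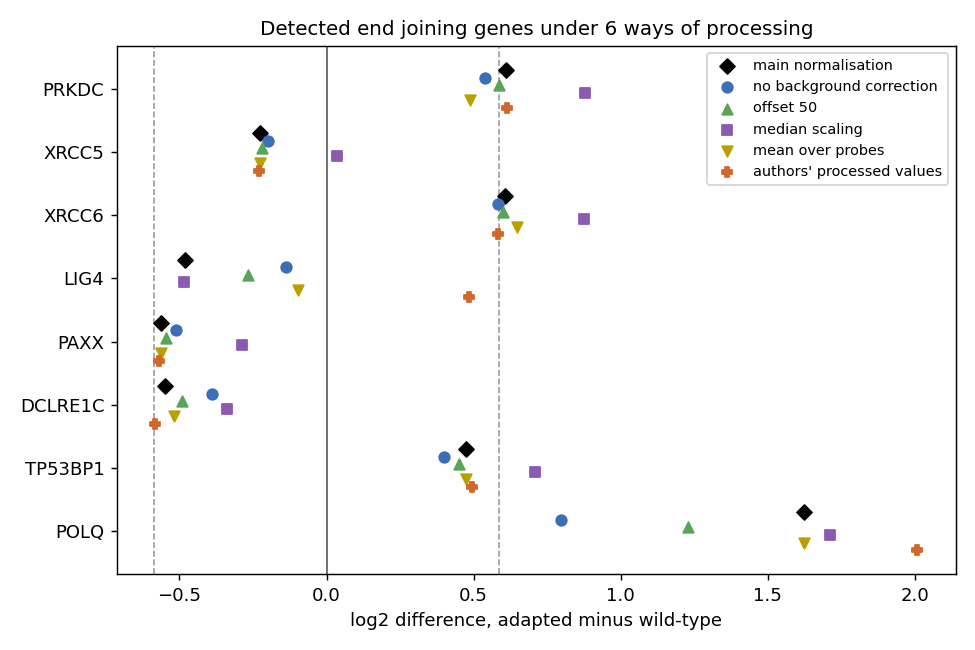
log2 difference (adapted minus wild-type) of the 8 end joining genes detected in at least 1 array, with 1 symbol for each of 6 ways of processing, and dashed lines at 1.5-fold in each direction. The symbols of POLQ spread from 0.80 to 2.01 and all lie beyond 1.5-fold, those of LIG4 lie on both sides of 0, and median scaling (squares) moves most genes to the right.

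Genes that work with these members were examined through lists written from general knowledge. In end processing and accessory end joining, 8 of 11 listed genes were detected and their median was 0.37. Past 1.5-fold, 2 were higher and 0 lower, where 11.8% of all detected genes were higher and 12.3% lower. WRN, the Werner helicase and exonuclease, was higher (0.59, or 0.43 without background correction). TDP2, which removes trapped topoisomerase II from DNA ends, was detected only in the adapted array and was at least 1.97-fold higher, a bound of 1.25-fold without background correction. ERCC6L2 (0.49) and aprataxin, APTX (0.40), which clears failed ligation intermediates, stayed under 1.5-fold.

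Around 53BP1, 11 of 13 listed genes were detected, with 1 higher and 0 lower past 1.5-fold and a median of 0.39, or 0.12 without background correction. PAXIP1, which encodes the 53BP1 effector PTIP, was the higher one (0.81, or 0.53 without background correction). The shieldin subunit SHLD2 read 0.56, the H4K20 methyltransferase KMT5A 0.53 and the scaffold MDC1, which recruits the ubiquitin ligases upstream of 53BP1, 0.47. Of the 11, 8 read above 0 and 3 below, where 5717 of all 11296 detected genes read above 0 and 5573 below. The count of 1 among 11 past 1.5-fold was close to the share over all genes.

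Among genes that act with polymerase theta in end joining, 10 of 12 were detected, with 4 higher and 0 lower past 1.5-fold. Over all detected genes, 11.8% were higher and 12.3% lower. The median of the list was 0.29, or 0.53 with median scaling, which raised the median of all genes to 0.17. The higher ones were DNA ligase III, LIG3 (1.03), and its partner XRCC1 (0.80), which can seal the joints that polymerase theta makes, DNA ligase I, LIG1 (0.72), and NBN (0.71), a component of the complex that starts resection. Without background correction these read 0.63 for LIG3, 0.52 for XRCC1, 0.41 for LIG1 and 0.50 for NBN. LIG3 alone of the 4 was then beyond 1.5-fold, where 4.21% of all detected genes were that much higher. PARP1, the poly(ADP-ribose) polymerase, read 0.30.

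The other specialised polymerases, with the helicase HELQ, which resembles the helicase part of polymerase theta, had 6 of 9 genes detected. PRIMPOL, which restarts stalled forks by repriming, was higher (1.37, or 0.62 without background correction), and 0 were lower. Past 1.5-fold, 11.8% of all detected genes were higher and 12.3% lower. HELQ read 0.48. POLN and POLH passed the detection limit only in the adapted array, with bounds of 1.48-fold and 1.16-fold. The median of the list was 0.58, or 0.46 with these bounds, and 0.21 without background correction. The difference of POLQ (1.62) was above that of every detected gene of this list and of the partners list.

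In the competing pathway of resection and recombination, 11 of 15 listed genes were detected, with 5 higher and 1 lower past 1.5-fold. Over all detected genes, 11.8% were higher and 12.3% lower. The median of the list was 0.55, or 0.23 without background correction. BLM (1.37), EXO1 (1.20) and RAD54L (0.91) were higher, and XRCC2, a recombination factor, was lower (-0.83). Without background correction BLM (0.56) and RAD54L (0.48) were under 1.5-fold. EXO1 then read 0.82, against 0.80 for POLQ, so the order of POLQ and EXO1 was not settled. Across these lists, genes without a named probe were not analysed here.

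Cell cycle genes were higher in the same array as POLQ. All 15 listed genes of G2 and mitosis were detected and 15 were at least 1.5-fold higher (14 without background correction), with a median of 1.22 and a range of 0.95 to 2.14. They included KIF20A (2.14), a mitotic kinesin, FOXM1 (1.87), the mitotic transcription factor, CCNB1 (1.83), cyclin B1, and AURKA (1.80), a spindle kinase. The difference of POLQ lay inside that range. Of 15 listed S phase genes, 14 were detected, with 4 higher and 0 lower past 1.5-fold. Over all detected genes, 11.8% were higher and 12.3% lower. The median of the S phase genes was 0.46 and their highest value 1.36, for thymidylate synthase, TYMS. Without background correction TYMS (1.11), CDC45 (0.87) and POLA1 (0.83) read above POLQ (0.80), so the order of POLQ and these genes was not settled. CDC45 (1.16), POLA1 (1.16, with probes of differing sign) and RRM1 (0.81) were the other higher S phase genes. With the mean over probes POLA1 read 0.37, which is under 1.5-fold. In RNA from a whole culture, a larger share of cells in one cycle phase and more RNA per cell cannot be told apart, and the part of the cell cycle in the POLQ value was not tested.

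**Figure D4:**
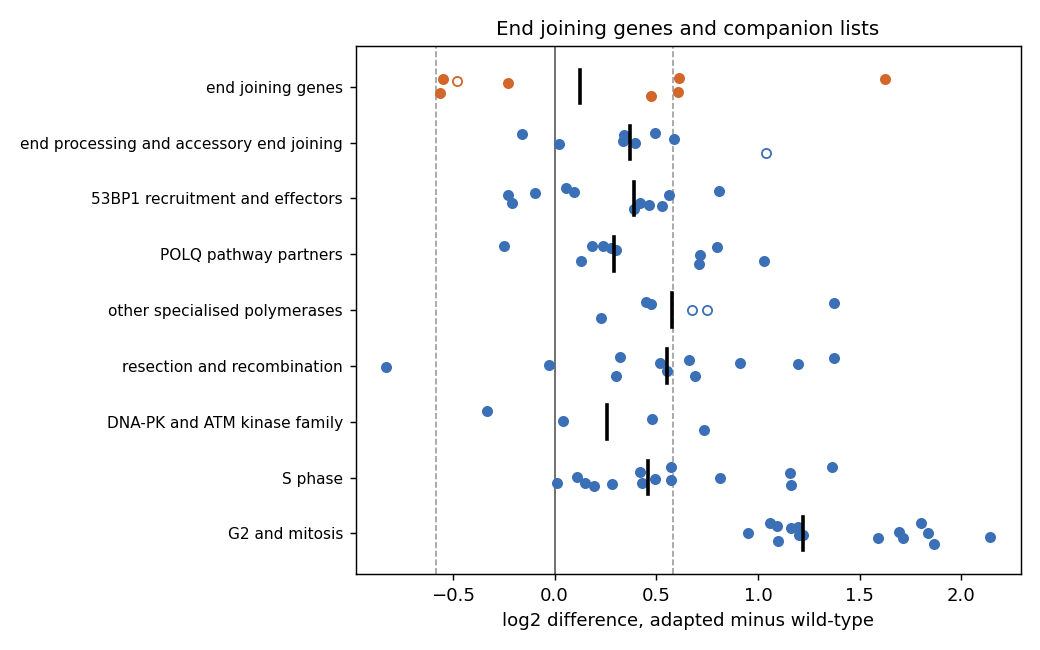
log2 difference (adapted minus wild-type) of each detected gene of the end joining set (orange) and of 8 companion lists (blue), with open circles for genes not detected in both arrays, shown at their measured value, a black bar at each list median and dashed lines at 1.5-fold. The G2 and mitosis genes all lie to the right of 1.5-fold, and the end joining genes spread from -0.56 to 1.62.

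Genes next to each member on its chromosome were compared, taking the 5 nearest detected genes on each side in the RefSeq order. MCM4, a subunit of the replicative helicase, lies head to head with PRKDC and read 0.57, against 0.61 for PRKDC, but with the mean over probes MCM4 read 0.88 and PRKDC 0.49. Its probes read 469 and 210 in the wild-type and 730 and 357 in the adapted array. The next gene on the other side of PRKDC, CEBPD, a transcription factor of the inflammatory response, was lower (-2.31), and the median of the 10 neighbours was -0.04. PAXX lay among genes of which 8 of 10 read below 0, with a median of -0.27. Over all 11296 detected genes, 5717 read above 0 and 5573 below. The 8 include a gene detected only in the wild-type array, and a shift shared by neighbours was not tested. The genes on either side of PAXX were ABCA2, a lipid transporter (-1.11), and FBXW5 (-0.45).

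XRCC6 lay among genes of which 8 of 10 read above 0, with a median of 0.38, and its nearest neighbours were DESI1 (0.09) and SNU13 (-0.38). The 8 include genes detected only in the adapted array. POLQ was above all 10 of its neighbours, whose values ran from -1.30 to 1.02 with a median of 0.28, and the genes beside it were GTF2E1 (0.25) and HCLS1 (0.74). DCLRE1C was lower while its neighbour HSPA14 was higher (0.60) and RPP38 was level (0.03). The neighbours of TP53BP1 had a median of 0.00, with TUBGCP4, which overlaps it in RefSeq, at 0.03 and MAP1A at -0.02. Beside XRCC5, TMEM169 read 0.06 and SMARCAL1 0.27. Beside the members that were hard to detect, ARGLU1 (-0.05) and TNFSF13B (0.55) flanked LIG4, and CRYBA2 (0.34) and CNPPD1 (-0.21) flanked NHEJ1. Next to XRCC4 the small RNA SCARNA18 passed the detection limit only in the adapted array and the matrix proteoglycan VCAN only in the wild-type array.

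**Figure D5:**
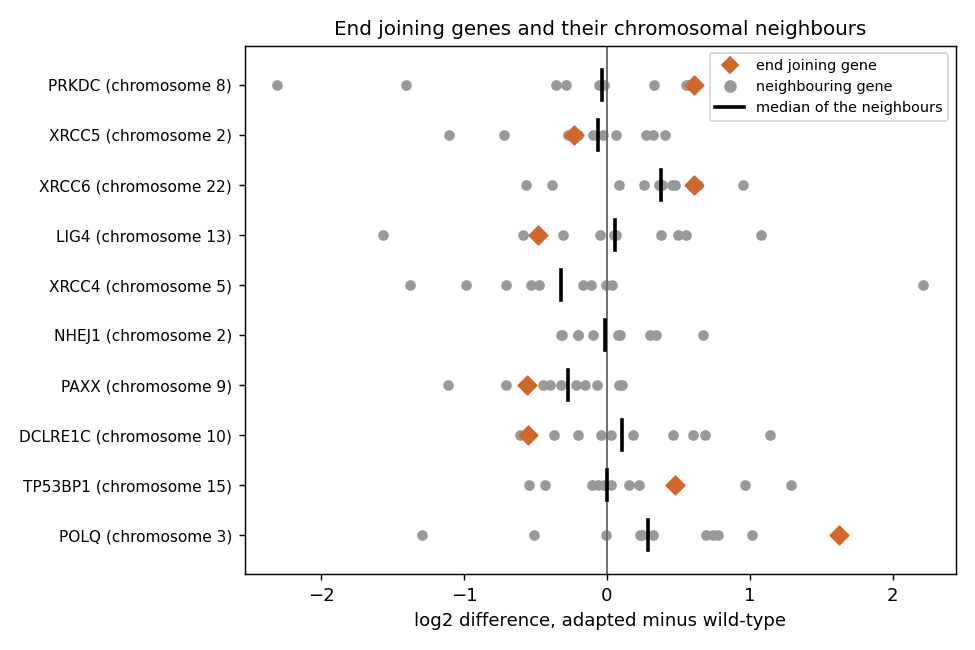
log2 difference (adapted minus wild-type) of each end joining gene (orange diamond, where detected) and of the 5 nearest detected genes on each side of it (grey points), with a black bar at the median of the neighbours. POLQ lies to the right of all its neighbours. PRKDC (0.61) lies level with the highest of its neighbours (0.61), and PAXX lies within the range of its own.

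Across the arrays as a whole, 37.8% (wild-type) and 35.3% (adapted) of the probes passed the detection limit, with median intensities of 139 and 140. All 6 listed Ewing sarcoma markers were detected in both arrays, with summed intensities of 12636 and 15610, among them the surface antigen CD99 (-0.55), FLI1 (0.81), NKX2-2 (-0.09) and STEAP1 (0.35), and the lipase LIPI (1.82) and the peptide hormone CCK (0.39). Of 7 leukocyte markers with a probe, 1 was detected, CD14 (-0.21), near the detection limit, and the V(D)J recombination genes RAG1, RAG2 and DNTT, which use end joining in lymphocytes, were not detected. Summed intensities of these 7 were 949 and 938. No background was subtracted in any of the sums given here, so genes at background add to them. Of 4 epithelial markers 1 was detected, EPCAM (0.47), with summed intensities of 624 and 687. Of 6 fibroblast markers 5 were detected, with summed intensities of 2500 and 2797, and they went both ways, with DCN (1.97), COL3A1 (0.92) and LUM (0.78) higher and THY1 (-1.17) and COL1A1 (-0.74) lower, although COL3A1 (0.48) and COL1A1 (-0.32) were under 1.5-fold without background correction. Their part in the end joining values was not tested.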

How the data were processed

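RNA of 1 wild-type and 1 radiation-adapted A4573 culture was extracted with Trizol and labelled as biotin cRNA, per the labels' protocols. For each probe the deposited table holds an intensity before normalisation, whose lowest values (100 and 102) show that no background was subtracted, and a detection p-value, per the file headers. The authors' second deposited table holds intensity values on a linear scale with a median of 10.6 in each column and 27.7% of values below 0. Its columns rank the probes as the same array of the summary table does (Spearman rho 1.00 across probes, against 0.861 with the other array), so its direction is settled; the sources used here do not say how it was made.

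Main values came from neqc of limma 3.58.1 (R 4.3.3), with a normal-exponential background inferred from the detection p, an offset of 16, quantile normalisation and log2. Quantile normalisation removes any difference in total signal, and the offset draws dim probes towards 0. Probes were named from the platform annotation through gene IDs in RefSeq GRCh38.p14. A single symbol was given for 30113 of 47323 probes and several for 8, and 17202 were unlisted. The brightest detected probe stood for a gene. Where only 1 array detected a gene, the bright value was set against the higher of the dim value and the dimmest detected probe, giving a bound ("at least"). No test was run on 1 array per group, and the number of arrays limits the precision.

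The text names all members, up to 4 genes of each list with the largest differences, any list gene with a bound of at least 2-fold, the gene on each side of a member, MCM4, CD99, FLI1, NKX2-2 and STEAP1; PARP1 and COL1A1 were added after their values were seen. The members and lists were chosen with earlier results of these data known. The steps were tested on simulated arrays, but only with changes larger than 1.5-fold, so calls near 1.5-fold were not covered. The 7 alternatives were no background correction, an offset of 50, median scaling, a detection p of 0.05, no detection filter, the mean over detected probes, and the authors' processed values floored at 16. Python 3.11.15, pandas 2.3.3, numpy 2.4.6 and matplotlib 3.10.9 were used.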

Additional observations from a re-analysis of the deposited data

How the results depend on the processing

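The design has 1 array per group, so no replicate could be left out and no paired analysis was possible. Among the members, the named list genes and the list medians, no difference of at least 1.5-fold changed sign under any of the 7 alternatives. With no background correction, 1 member (POLQ) was at least 1.5-fold higher in place of 3 (2 with the mean over probes, where PRKDC fell under 1.5-fold, and 2 in the authors' processed values, where XRCC6 did), and the counts over all genes fell from 1334 higher and 1385 lower to 475 and 655. With that setting the median of the other specialised polymerases was 0.21, that of resection and recombination 0.23 and that of the fibroblast markers 0.48. With an offset of 50, 877 genes were at least 1.5-fold higher. Median scaling gave 2157 higher and 1020 lower, so that 67.9% of the calls were higher, against 49.1% in the main values, and it raised the median of all genes from 0.01 to 0.17; relative to that median, XRCC6 read 0.71, PRKDC 0.71, PAXX -0.46 and XRCC5 -0.13. The median of the members turned to -0.23 at a detection p of 0.05 and to -0.21 without a detection filter, where dim members enter, and was 0.49 in the authors' processed values, where LIG4 read 0.49. In those values the median of G2 and mitosis was 1.54. The median of the fibroblast markers was 0.20 at a detection p of 0.05 and without a filter, and that of the epithelial markers 0.11 without a filter. Of the 189 values of main results under an alternative, 15 moved by more than the SD between probes of a gene (or 1.5 times for a count). Of 567 for single genes and list counts 64 did. These totals include values that could not move, such as the mean over probes of a gene with 1 probe. Without background correction 34 values moved and 74 did not, and at a detection p of 0.05 these were 3 and 105. Signal near background limits POLQ, LIG4, XRCC4 and NHEJ1.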
